A study of Mus musculus with 24 samples.

Results

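The potassium channel genes of the mouse hippocampus were described here in total and m6A-immunoprecipitated RNA of 3 groups of animals. They were taken by symbol, as genes of the estimated-count table named Kcn followed by a family letter code and a number, other than Kcnj13, with a mean count of 10 or more over the 24 libraries. Of 55291 gene rows, 91 had such a symbol and 74 reached the threshold. Kcna5 (mean count 12.5) and Kcnh4 (16.8) lay just inside it, and Kcnk5 (9.21) and Kcnj5 (7.50) just outside, as did the microglial calcium-activated channel gene Kcnn4 (4.79). Hippocampal poly(A) RNA was profiled by MeRIP-seq, in which an antibody against N6-methyladenosine enriches the transcripts that carry this modification. Untreated wild-type animals were set beside 5xFAD animals dosed with vehicle or with MS1262, 4 in each of the 3 groups, described as age matched with no age given in the labels used here. Each animal gave 1 input library, a measure of expression, and 1 immunoprecipitated (IP) library. By the series title MS1262 is a brain-penetrant inhibitor of the methyltransferase G9a. 5xFAD mice carry mutant human transgenes of familial Alzheimer's disease under the neuronal Thy1 promoter. All treated or vehicle-dosed animals were 5xFAD and all wild-type animals were undosed, so that genotype and dosing cannot be told apart against the wild type.

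Potassium channels let potassium leave the cell, and so set the resting potential of a neuron, end its action potentials and pace its firing. A channel is built of pore subunits (Kcna, Kcnb, Kcnc and Kcnd for voltage-gated, Kcnh for ether-a-go-go, Kcnq for M-current, Kcnma, Kcnn and Kcnt for calcium- or sodium-activated, Kcnj for inwardly rectifying and Kcnk for tandem-pore leak channels). Silent pore subunits (Kcnf, Kcng, Kcns, Kcnv) form no channel alone, and auxiliary subunits (Kcnab, Kcne, Kcnip, Kcnmb) alter gating or delivery to the membrane. In hippocampal pyramidal cells Kv4 channels with their Kcnip partners carry the dendritic A current, Kv7 channels carry the M current, and Kir3 channels carry the slow inhibition that follows GABA-B receptors.

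Kcnab1, which encodes the beta subunit that adds fast inactivation to Kv1 channels, had the highest level of these genes per transcript length and an m6A peak beside an internal transcription start. Its gene spans chr3:64949212-65378225 on the plus strand of GRCm38, 429014 bases, and RefSeq gives it 3 starts with promoter windows. A merged peak region, called in all 12 animals, ran over chr3:65109041-65110149 and began 27 bases after the middle start, at base 65109014. Its first base is the outermost edge of the merged peaks. The summits lay further in, at bases 65109513 to 65109953 (median 65109615). No peak region lay in the 1500 bases after the first start (64949212) or the last (65188103). The windows are shown because they set the start with the peak beside those without; lower-case letters are the 250 bases before each start and capitals the first 30 transcribed bases, from RefSeq (GRCm38.p6), plus strand, 5′ to 3′.
Kcnab1 first start, chr3:64948962-64949241: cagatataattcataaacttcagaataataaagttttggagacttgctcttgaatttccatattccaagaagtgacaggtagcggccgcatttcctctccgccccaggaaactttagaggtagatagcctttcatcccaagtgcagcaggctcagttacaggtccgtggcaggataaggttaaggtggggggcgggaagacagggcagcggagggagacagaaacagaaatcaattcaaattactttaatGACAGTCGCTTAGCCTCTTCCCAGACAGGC
Kcnab1 middle start, chr3:65108764-65109043: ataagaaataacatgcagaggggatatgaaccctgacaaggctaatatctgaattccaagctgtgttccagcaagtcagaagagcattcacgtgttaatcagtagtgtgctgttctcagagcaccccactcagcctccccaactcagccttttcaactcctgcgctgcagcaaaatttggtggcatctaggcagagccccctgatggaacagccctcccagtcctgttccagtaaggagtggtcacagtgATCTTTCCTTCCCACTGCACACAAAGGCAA
Kcnab1 last start, chr3:65187853-65188132: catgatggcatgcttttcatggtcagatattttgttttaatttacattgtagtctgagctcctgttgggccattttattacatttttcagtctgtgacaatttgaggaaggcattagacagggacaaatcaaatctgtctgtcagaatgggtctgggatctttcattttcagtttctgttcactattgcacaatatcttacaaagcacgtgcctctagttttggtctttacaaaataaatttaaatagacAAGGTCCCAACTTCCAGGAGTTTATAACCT
Over the full 300-base windows, the first held 7 CG dinucleotides, the middle 3 and the last 1, against a median of 7.0 over all 32851 windows and 9.0 over the 77 windows of 52 potassium channel genes. The letters TATAA, searched on both strands, were in the first and last windows and not in the middle one; 24.9% of all windows and 10.4% of the potassium channel windows held them. CCAAT, searched likewise, was in none of the 3, and in 37.4% of all windows. Of the 77 windows, the middle one of Kcnab1 was the 1 that a deposited peak overlapped.

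The input libraries held 20.7 to 43.2 M (megacounts) of estimated counts and the IP libraries 3.98 to 48.6 M, the lowest being vehicle animal 4. The 74 genes took 0.236 to 0.301% of input counts and 0.264 to 0.344% of IP counts. Markers of the hippocampal subfields (6 of 6 genes detected in every library) summed to 94.2 to 229 TPM (transcript abundance scaled for length and depth) in input, lowest in vehicle animal 4. Choroid plexus markers (7 of 8 genes detected in every library) summed to 12215 TPM in vehicle animal 3 and 1537 in wild-type animal 3, and to 279 to 507 elsewhere. Thalamus markers were also highest in vehicle animal 3, at 184 TPM against 27.3 to 81.2 in the other animals. Microglial markers summed to 196 to 233 TPM in wild-type, 194 to 415 in vehicle and 288 to 341 in MS1262 animals. Inhibitory neuron markers summed to 534 to 624, 389 to 461 and 355 to 482 TPM. Of these 6 genes Sst alone was called (lower in both 5xFAD groups than in wild type, at 238 to 381 TPM in wild-type, 122 to 173 in vehicle and 118 to 162 in MS1262 animals), and the sums of the other 5 overlapped, at 243 to 336, 235 to 289.9 and 234 to 319.6 TPM. In bulk tissue, fewer cells of a type and less RNA per cell cannot be told apart.

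Levels were compared between genes in TPM, which is per transcript length, over the 12 input libraries. The 74 genes summed to 627 TPM, and 52 reached 1 TPM, 32 reached 5 TPM, 19 reached 10 TPM and 1 reached 50 TPM. Auxiliary subunits made up 35.0% of that sum (13 genes, 219.6 TPM), voltage-gated pore subunits 19.5% (15 genes, 122 TPM) and inward rectifiers 16.2% (11 genes, 102 TPM). Calcium- or sodium-activated channels held 8.98% (7 genes), tandem-pore channels 7.53% (8 genes), silent subunits 5.96% (8 genes), the M-current family 4.87% (4 genes) and the ether-a-go-go family 1.92% (8 genes).

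Among the 10 genes with the highest input level, Kcnab1 led with 66.0 ± 9.08 TPM (mean ± SD, n = 12 animals). In wild-type animals 1 to 4 its input level was 63.2, 76.0, 58.7 and 78.4 TPM, in vehicle animals 60.3, 69.7, 72.1 and 43.9 TPM, and in MS1262 animals 68.5, 65.7, 65.3 and 69.9 TPM. The groups overlapped, and vehicle animal 4 was the lowest of the 12. Next came the A-current machinery: Kcnip4, a calcium-binding Kv4 partner, at 46.8 ± 7.80 TPM, and Kcnd2, the Kv4 pore subunit of pyramidal dendrites, at 45.4 ± 8.66 TPM. Kcnip2, another Kv4 partner, stood at 33.4 ± 5.31 TPM and Kcnip3 (also named calsenilin or DREAM) at 22.7 ± 7.95 TPM. Each of the 10 overlapped in its range over animals with its neighbour in the order of levels.

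The other high genes came from several classes. Kcnj3, a pore subunit of the G-protein-gated Kir3 channel, was at 39.1 ± 5.04 TPM, and Kcnc2, a Kv3 subunit of fast-spiking cells, at 26.3 ± 4.75 TPM. Kcnk1, a weakly conducting tandem-pore channel, was at 25.9 ± 3.53 TPM, and Kcnj16, an inward rectifier that pairs with Kcnj10 in astrocytes, at 23.4 ± 4.18 TPM. Kcnma1, the pore of the large-conductance BK channel, was at 21.2 ± 2.92 TPM and Kcnab2, the Kv1 chaperone subunit, at 20.2 ± 3.49 TPM. At the low end, Kcnh2, the ERG pore subunit, had 0.0741 TPM in input, or 1 to 9 counts per input library, the lowest level of the 74.

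**Figure D1:**
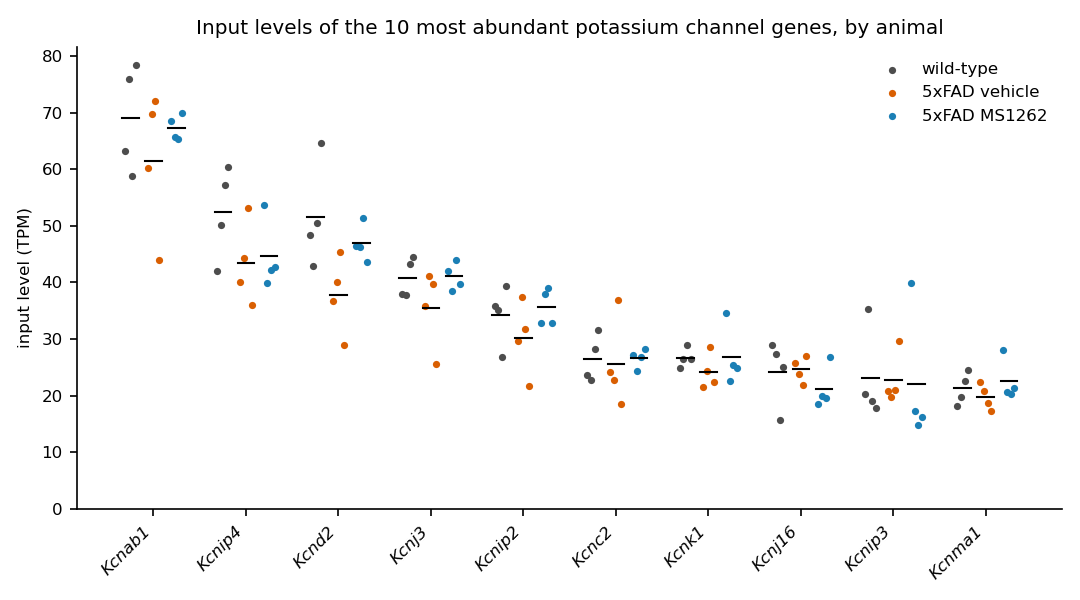
Input level in TPM (vertical axis) of the 10 potassium channel genes with the highest mean level, each point 1 animal and each bar the mean of 4 animals of a group. Kcnab1 lies between 43.9 and 78.4 TPM and the 3 groups overlap for each of the 10 genes.

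Which of these transcripts the antibody enriched was asked by comparing IP with input of the same animal (edgeR quasi-likelihood test on TMM-scaled counts, animal as a block, Benjamini-Hochberg adjusted p below 0.05 over 18300 genes, called below). In wild-type animals 17 of the 74 were higher in the IP and 6 lower, against 16.8% and 16.2% of all genes tested. In vehicle animals 19 were higher and 16 lower (all genes 19.1% and 20.6%), and in MS1262 animals 23 were higher and 8 lower (20.5% and 17.6%). Higher in all 3 groups were 16 genes (all genes 11.2%), and 5 were lower in all 3 (12%). The median log2 ratio of the 74 was 0.16, 0.15 and 0.16 in the wild-type, vehicle and MS1262 groups, beside 0.00, −0.03 and 0.02 for all genes tested. The ratio is relative to the other RNA in each library and gives no absolute amount of m6A.

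The lower calls rest on that scaling, and for some genes, among them Kcnb2, Kcnn2 and Kcnv1, so does the sign. On log2(TPM + 1) with limma the median gene was 0.33, 0.41 and 0.36 higher in the IP of the wild-type, vehicle and MS1262 groups. On that scale 44, 54 and 43 of the 74 genes were called higher and 0 lower. These counts include the upward shift of the median gene, and the share of all genes called on that scale was not counted.

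The largest ratios belonged to Kcnh2 (log2 3.06, SE 0.32, average of the 3 groups), which encodes the ERG channel that repolarises the heart and damps firing in neurons. Its IP counts were 14, 87, 8 and 36 in wild-type, 44, 15, 30 and 8 in vehicle, and 28, 56, 34 and 34 in MS1262 animals, against at most 9 in any input library. With so few input counts the size of this ratio is uncertain, and in wild-type animals the call was lost on log2(TPM + 1) (0.46, limma adjusted p = 0.0515, the highest of its alternatives). Kcnh3, an ether-a-go-go channel gene of forebrain neurons, had 1.83 (SE 0.18). Its IP minus input difference, in log2 CPM (counts scaled to library size), was 0.84, 1.22, 1.63 and 2.38 in wild-type animals 1 to 4, 1.60, 2.00, 2.82 and 1.47 in vehicle, and 2.05, 2.16, 1.54 and 1.74 in MS1262 animals. All 12 animals were above 0 and the groups overlapped.

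Kcnk3, the acid-sensitive TASK leak channel, had 1.59 (SE 0.13), with an IP minus input difference of 0.98 to 2.21 log2 CPM in the wild-type, 1.19 to 2.20 in the vehicle and 0.73 to 1.85 in the MS1262 group. Kcnip3 had 1.23 (SE 0.08), with 0.89 to 1.75, 0.93 to 1.53 and 0.68 to 1.39. Both genes, like Kcnh3, were above 0 in every animal and called in every group under each alternative run.

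Other genes called higher in all 3 groups had smaller ratios. Kcnh1, an ether-a-go-go pore subunit, had 1.02 (SE 0.07). Of the Kv1 complex, the pore genes Kcna1 (0.77), Kcna6 (0.58) and Kcna2 (0.45) and the beta subunits Kcnab1 (0.61) and Kcnab2 (0.43) were called. The inward rectifiers Kcnj2 and Kcnj11 (the pore of the ATP-sensitive channel) had 0.67 and 0.55, and the neuronal BK beta subunit Kcnmb4 0.46. Kcnab1 was above 0 in 11 of 12 animals, with −0.12 in vehicle animal 4, Kcna2 in 11 and Kcnj2 in 10.

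Lower in all 3 groups on the TMM scale were Kcnd2 (log2 −0.96, SE 0.09, or 0.515-fold), the Kv3 gene Kcnc2 (−0.66, SE 0.06), the delayed rectifier gene Kcnb2 (−0.56, SE 0.06), the SK channel gene Kcnn2 (−0.45, SE 0.06) and the silent subunit gene Kcnv1 (−0.40, SE 0.07). For Kcnd2 the IP minus input difference was −0.87, −0.75, −1.13 and −1.03 in wild-type animals, −0.83, −0.68, −0.79 and −2.03 in vehicle and −0.79, −0.85, −0.95 and −0.89 in MS1262 animals. Vehicle animal 4, with the shallowest IP library, stood apart and the other 11 lay within −1.13 to −0.68. None of the 5 genes was above 0 in any animal. On log2(TPM + 1) none was called lower, Kcnd2 remained below 0 (−0.36, −0.35 and −0.26 in wild-type, vehicle and MS1262), and Kcnb2, Kcnn2 and Kcnv1 turned to positive values in all 3 groups, Kcnb2 being called higher in vehicle animals (0.38, limma adjusted p = 0.0368).

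**Figure D2:**
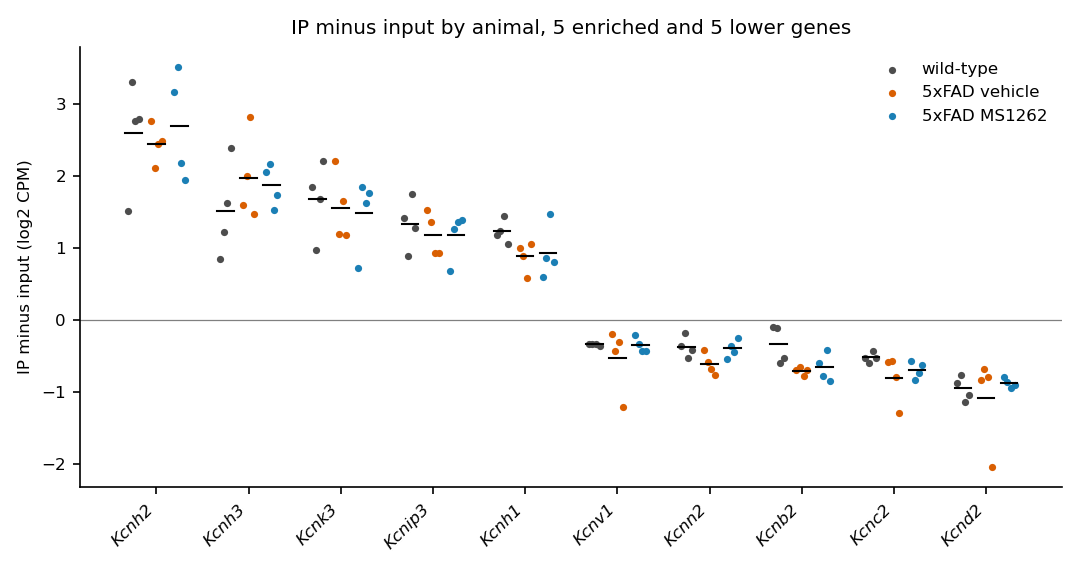
IP minus input in log2 CPM (vertical axis) of 5 genes called higher and the 5 called lower in all 3 groups on the TMM scale, each point 1 animal and each bar a group mean. Vehicle animal 4 is the low point of Kcnd2 at −2.03; on log2(TPM + 1) none of the 5 lower genes was called lower and Kcnb2, Kcnn2 and Kcnv1 were above 0.

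Genes of the same family lay on both sides of 0 on the TMM scale. Of the Kv3 genes, Kcnc1 had 0.26, Kcnc4 0.21 and Kcnc2 −0.66. Of the Kv4 genes, Kcnd1 had 0.47, Kcnd3 −0.48 and Kcnd2 −0.96. Of the Kcnip genes Kcnip3 had 1.23 and Kcnip1, Kcnip2 and Kcnip4 −0.28, −0.10 and −0.04. Of the 4 M-current genes, Kcnq5 had −0.12 and Kcnq3 −0.23, while 1 of the 4 was called higher in all 3 groups. These are descriptions, as differences between genes were not tested.

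By class, 5 of 15 voltage-gated pore genes were called higher in all 3 groups and 3 lower, and 4 of 13 auxiliary genes higher and 0 lower. Of the ether-a-go-go family 3 of 8 were higher, of the inward rectifiers 2 of 11, and of the M-current and tandem-pore families 1 of 4 and 1 of 8, with 0 lower in each. Of the silent subunits and of the calcium- or sodium-activated channels none was higher in all 3 groups and 1 was lower (1 of 8 and 1 of 7). Over all genes tested 11.2% were higher and 12% lower in all 3 groups, and classes this small cannot be told from those shares. The lower calls of every class are on the TMM scale, and on log2(TPM + 1) none of them held. In the silent class Kcng2 (0.61), Kcng4 (0.34) and Kcng1 (0.23) were above 0 on average, and Kcns1 (−0.01), Kcns3 (−0.06), Kcns2 (−0.23) and Kcnf1 (−0.24) at or below it. In the calcium- or sodium-activated class Kcnn1 and Kcnt1 had 0.19 each, the testis gene Kcnu1 0.05, Kcnn3 −0.15, Kcnma1 −0.19 and Kcnt2 −0.46.

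Among the remaining inward rectifiers, Kcnj14 had 0.42, Kcnj10 0.37, Kcnj6 0.34, Kcnj4 0.17, Kcnj8 0.13, Kcnj16 0.07, Kcnj12 −0.21, Kcnj9 −0.23 and Kcnj3 −0.24. Of these, Kcnj10 is the main astrocytic channel, and Kcnj6 and Kcnj9 join Kcnj3 in Kir3 channels. The tandem-pore genes besides Kcnk3 lay between −0.28 (Kcnk13) and 0.39 (Kcnk6), with Kcnk1, Kcnk2, Kcnk4, Kcnk9 and Kcnk10 at 0.18, 0.24, 0.23, 0.11 and 0.19. Kcnk1 was above 0 in 12 of 12 animals and was called in MS1262 animals alone (0.27, edgeR adjusted p = 0.011). Of the Kcne and Kcnmb genes, Kcne2 (0.49), Kcnmb1 (0.54), Kcne4 (0.34), Kcnmb2 (0.20) and Kcne3 (−0.31) were not called in all 3 groups, and of the Kv1 set Kcna3 (0.34), Kcna4 (−0.20), Kcna5 (−0.33) and Kcnab3 (−0.03) were not. Of the ether-a-go-go genes Kcnh6 (0.98), Kcnh4 (0.17), Kcnh8 (−0.09), Kcnh5 (−0.41) and Kcnh7 (−0.63) were not.

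**Figure D3:**
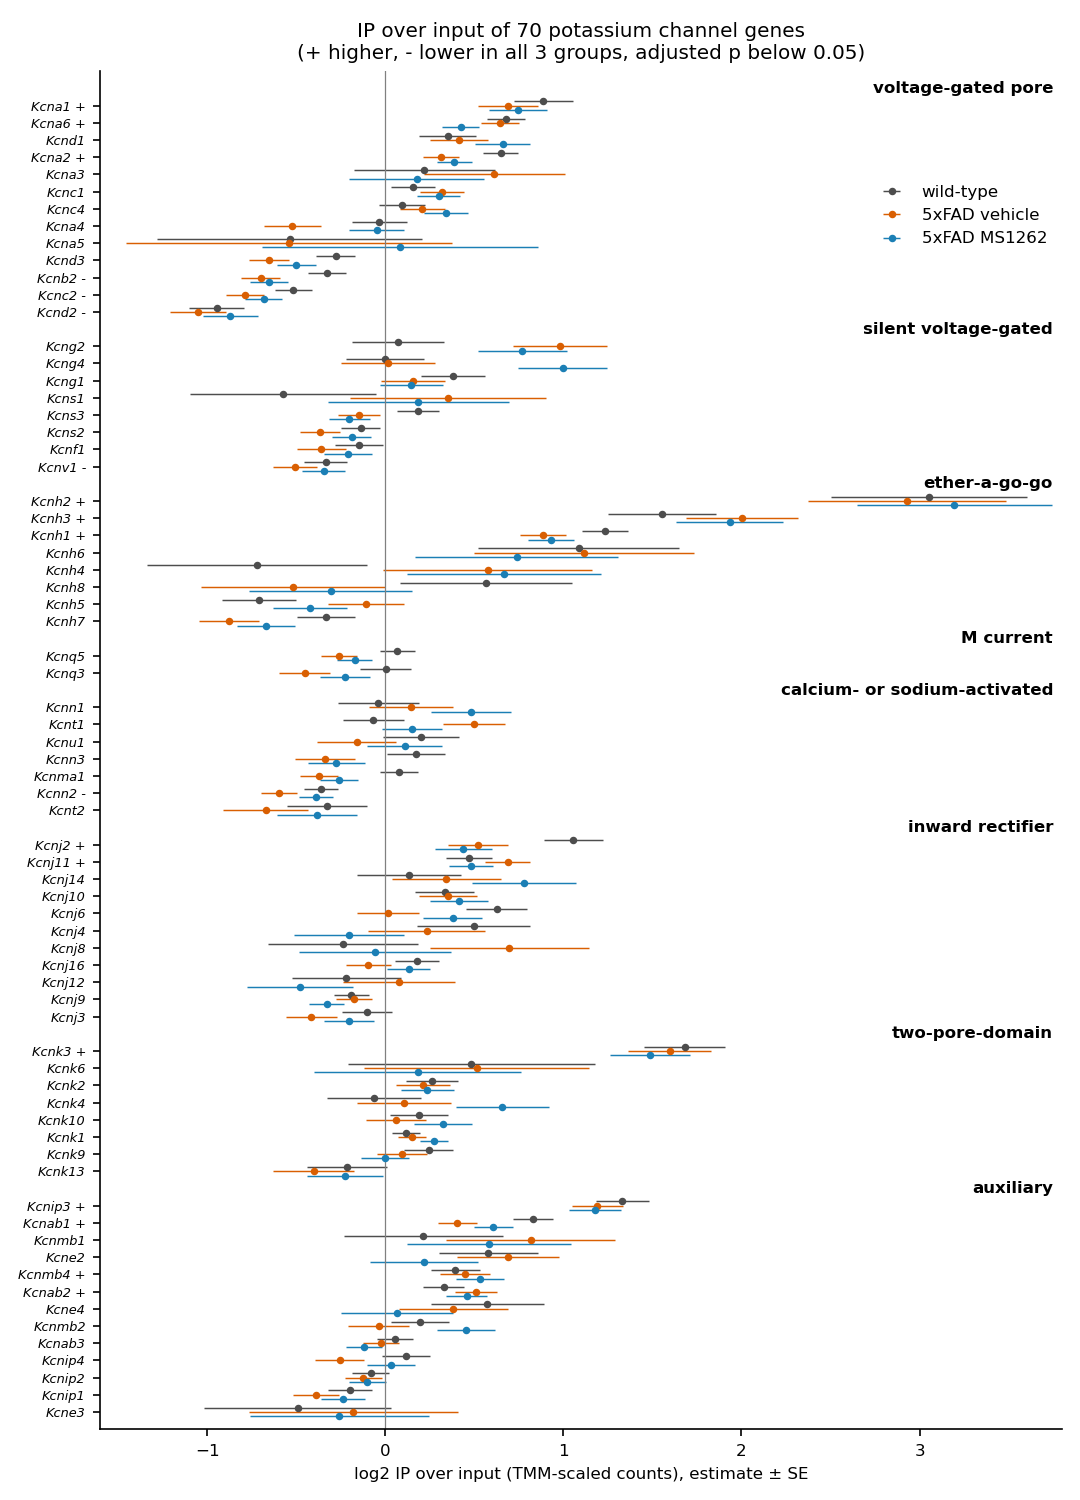
Log2 IP over input of 70 genes (horizontal axis, edgeR estimate ± SE on TMM-scaled counts) in the 3 groups, by class and sorted by the average. Kcnh2 has the highest average (3.06) and Kcnd2 the lowest (−0.96); 13 of those plotted are marked higher and 5 lower in all 3 groups, and on log2(TPM + 1) none is called lower.

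Across the 74 genes the average ratio had a Spearman correlation of −0.303 (Pearson −0.269) with the log10 of the gene span, and across 73 genes of −0.272 (Pearson −0.301) with log2 mean input CPM. Both are given as descriptions across genes, which share the 24 libraries and are not independent.

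m6A peaks, called by the authors for each animal's IP against its own input, gave the position that gene counts do not. A deposited peak fell in 30 of the 74 genes in at least 1 animal, in 16 genes in 6 or more animals, and in 6 genes in all 12, among them Kcna2, Kcnab1, Kcnh1, Kcnip3 and Kcnj3. The share of all genes with a peak was not counted. Every peak of the deposited lists was counted, with no cut on its q-value set here. Of the 16 genes called higher in the IP in all 3 groups 13 had a peak in any animal and 9 in 6 or more, and of the 5 lower genes 2 had one. Those 2 were Kcnd2, in 1 wild-type animal at a −log10 q-value of 0.78, and Kcnv1, in 2 animals at up to 9.51. Peaks were found more in genes of high level: the median input level was 14.1 TPM in genes with a peak in 6 or more animals and 1.33 TPM in the 44 genes with none. Kcnh2 and Kcnh3, with the lowest and a low input level (0.0741 and 0.302 TPM), had none.

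Fold enrichments of peaks are those of the authors' caller. The Kcnab1 region beside the middle start, of mm10 like the others, had folds of 4.31, 2.83, 5.60 and 3.75 in wild-type, 3.34, 3.08, 3.34 and 3.09 in vehicle, and 2.86, 3.83, 3.63 and 3.78 in MS1262 animals, so that the groups overlapped. A second Kcnab1 region found in all 12 animals, chr3:65376412-65377618, had its median summit 1207 bases from the 3′ end of the gene.

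Other regions found in all 12 animals lay in Kcna2 (chr3:107109928-107114133, summit 2920 bases from the 3′ end), Kcnh1 (chr1:192508258-192509978, 1334 bases), Kcnip3 (chr2:127456536-127458530, 1099 bases) and Kcnj3 (chr2:55437207-55437930). The last lay inside its gene, 25905 bases from the 5′ end and 160442 from the 3′ end. A second Kcnip3 region in all 12 animals, chr2:127510703-127511101, overlapped the predicted gene Gm35478. Of 19 regions found in 6 or more animals with a known strand, 13 had their summit within 5000 bases of the 3′ end of the gene and 1 within 5000 bases of the 5′ end. The share of all deposited peaks so placed was not counted, and read coverage along the genes was not examined. Whether a region is exonic or in a UTR was not analysed here.

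Between groups, 2 genes had a peak in at least 3 animals of 1 group and in none of another. The share of all genes that met this rule was not counted. Kcna1 had one in 3 wild-type animals (highest folds 1.49, 1.70 and 1.49) and in none of the 8 5xFAD animals. Kcnk2, a stretch-sensitive leak channel gene, had one in 4 vehicle and 3 MS1262 animals (highest folds 1.49 to 3.09) and in no wild-type animal. Their IP over input ratios lay close together across groups: 0.89, 0.69 and 0.74 for Kcna1 and 0.26, 0.21 and 0.23 for Kcnk2 in wild-type, vehicle and MS1262 animals. Lists were called separately at different depths (8.59 to 60.4 M IP tags), so that these differences in presence were not tested.

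**Figure D4:**
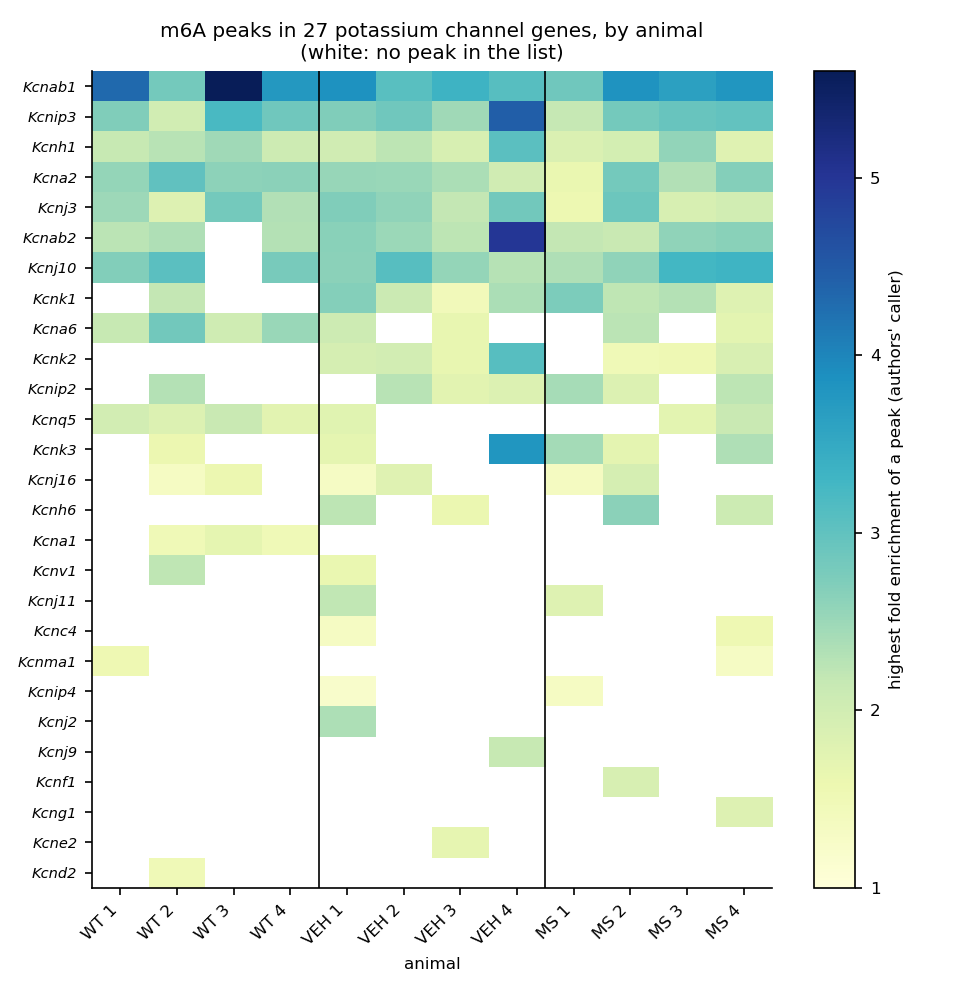
Highest fold enrichment of an m6A peak (colour, as the authors' caller gave it) in each of 12 animals (columns) for 27 genes with a peak in any list (rows), white where the list holds none. Kcnab1 reaches 5.60 and is filled in all 12 columns, and Kcnk2 is empty in the 4 wild-type columns.

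Expression was then compared between groups on the 12 input libraries, where differences from the wild type hold genotype and dosing together. No potassium channel gene passed. For vehicle against wild type 0 of 73 genes tested were called by edgeR (all genes 1.57%), 6 had an unadjusted p below 0.05, and DESeq2 called 0. For MS1262 against vehicle 0 of 73 were called (all genes 0%), with 4 below 0.05 unadjusted and 0 by DESeq2. For MS1262 against wild type 0 of 73 were called (1.3%), with 9 below 0.05 unadjusted and 0 by DESeq2. The median log2 difference of the 73 was 0.01, 0.07 and 0.01, beside 0.01, −0.01 and 0.00 for all genes. The 95% interval of the difference lay within a 2-fold change for 53, 52 and 55 of the 73 genes, and within 1.5-fold for 27, 37 and 23.

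The smallest p between vehicle and wild type was that of Kcnj2, the Kir2 inward rectifier that holds the resting potential. Its input level was 7.30, 7.34, 8.82 and 8.41 CPM in wild-type, 12.4, 16.3, 8.95 and 10.2 in vehicle, and 14.7, 12.5, 9.95 and 10.9 in MS1262 animals. All 8 5xFAD animals lay above the 4 wild-type animals. The difference was 0.58 log2 (SE 0.19, edgeR adjusted p = 0.175) for vehicle and 0.60 (SE 0.19, adjusted p = 0.160) for MS1262 against wild type, comparisons that share the wild-type animals. Without vehicle animals 3 and 4 the former was 0.83 and passed (edgeR adjusted p = 0.0471, and up to 0.457 over the alternatives). That alternative was chosen after seeing the data. It leaves out the vehicle animals with the lowest Kcnj2 values (8.95 and 10.2 CPM), which by itself raises the difference. Summed microglial markers were above the wild type in the same animals other than vehicle animal 3, with 3 of 8 called higher in vehicle and 4 of 8 in MS1262 animals, and their part in the Kcnj2 difference was not tested.

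Kcnab2 had the smallest p between MS1262 and wild type (0.42 log2, SE 0.12, adjusted p = 0.127). Its input level was 71.7, 50.5, 48.6 and 68.3 CPM in wild-type, 61.8, 69.0, 65.0 and 68.3 in vehicle, and 72.2, 81.2, 87.6 and 78.5 in MS1262 animals. The MS1262 animals lay above all others, the lowest of them by little. Kcnd3, a Kv4 pore subunit, followed (0.32, SE 0.11, adjusted p = 0.192), with 39.8, 37.9, 41.3 and 36.5 CPM in wild-type and 51.9, 49.5, 48.1 and 44.4 in MS1262 animals, which did not overlap.

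The smallest p between MS1262 and vehicle belonged to 2 KCNE-type auxiliary genes and Kcnq5. Kcne2, whose product serves the ion transport of the choroid plexus, was at 53.8 CPM in vehicle animal 3 and at 0.274 to 3.34 in the other 11 animals. Its difference was −4.38 log2 (SE 1.52, adjusted p = 0.848), and 1.15 without vehicle animal 3, the library with 12215 TPM of choroid plexus markers. Kcne4, an inhibitory subunit, was at 1.85, 1.69, 5.96 and 2.58 CPM in vehicle and 1.35, 1.09, 1.52 and 0.903 in MS1262 animals, which did not overlap. Its difference was −1.31 (SE 0.39, adjusted p = 0.848), and −0.74 without vehicle animal 3. Against wild type the vehicle value of Kcne4 was 1.13 (SE 0.38, adjusted p = 0.198), and 0.56 without that animal. Kcnq5 differed by 0.28 (SE 0.11, adjusted p = 0.848) and its groups overlapped.

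The IP libraries were compared between groups in the same way, as the level of transcript bound by the antibody. For vehicle against wild type edgeR called 0 of 74 (all genes 0.537%; 7 unadjusted below 0.05; 0 by DESeq2), and for MS1262 against vehicle 0 of 74 (0%; 2 unadjusted; 0 by DESeq2). For MS1262 against wild type edgeR called 0 of 74 (0.673%; 10 unadjusted), and DESeq2 called 1, Kcnc1. Kcnc1 encodes a Kv3 subunit of fast-spiking interneurons. Its IP level was 15.3, 12.9, 12.2 and 14.9 CPM in wild-type, 17.6, 17.2, 19.4 and 20.9 in vehicle, and 24.1, 16.3, 18.6 and 20.6 in MS1262 animals. All 8 5xFAD animals lay above the wild type, by 0.43 log2 (SE 0.15, edgeR adjusted p = 0.325) in vehicle and 0.52 (SE 0.15, adjusted p = 0.187) in MS1262 animals. The latter had an adjusted p of 0.0435 by DESeq2, and 0.0435 to 0.660 over its alternatives.

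Kcns3, a silent subunit that alters Kv2 channels, was lower in the IP of MS1262 animals without passing (−0.40, SE 0.14, adjusted p = 0.269). Its IP level was 20.4, 17.5, 19.4 and 21.4 CPM in wild-type, 17.0, 15.5, 16.8 and 12.8 in vehicle and 13.6, 14.3, 17.1 and 14.5 in MS1262 animals. Both 5xFAD groups lay below the wild type. Kcnh7, another ERG gene, was at 72.7, 64.3, 133 and 95.9 CPM in wild-type and 78.7, 48.2, 50.8 and 31.4 in vehicle animals, which overlapped (−0.79, SE 0.28, adjusted p = 0.332). Kcnq5 differed by −0.47 (SE 0.18, adjusted p = 0.377) between the same groups, and by −0.20 without vehicle animals 3 and 4. Kcnab2 was 0.54 higher (SE 0.19, adjusted p = 0.290) in the IP of MS1262 than of wild-type animals. Kcne4 (−1.53, SE 0.44) and Kcne2 (−4.31, SE 1.46) again had the smallest p for MS1262 against vehicle (adjusted p = 0.995 each), the value of Kcne2 being 0.13 without vehicle animal 3.

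Whether the enrichment of a gene differed between groups was tested as the difference of the IP over input ratios. For vehicle against wild type edgeR called 0 of 74 (all genes 0.989%), as did DESeq2, and 16 of 74, or 21.6%, had an unadjusted p below 0.05, beside 11.7% of all genes. Of those 16, 14 had a lower ratio in vehicle animals, among them Kcna2, Kcna4, Kcnab1, Kcnb2, Kcnd3, Kcnh7, Kcnj2, Kcnj6, Kcnma1, Kcnn3, Kcnq3 and Kcnq5; Kcng2 and Kcnt1 had a higher one. The median of the 74 was −0.13, beside −0.06 for all genes. The number below 0.05 was 11 without vehicle animal 4, the shallowest IP library, 5 without vehicle animals 3 and 4, and 7 without wild-type animal 1 or 4. It was 3 without the animal block and 3 on log2(TPM + 1), where the median of the 74 was 0.01.

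For MS1262 against vehicle edgeR called 0 of 74 (all genes 0%; 2 unadjusted; 0 by DESeq2). For MS1262 against wild type it called 0 of 74 (1.24%; 7 unadjusted; 0 by DESeq2).

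Kcnma1 had the smallest p between vehicle and wild type (−0.45 log2, SE 0.15, adjusted p = 0.209). Its IP minus input difference was 0.28, −0.17, 0.15 and 0.05 log2 CPM in wild-type, −0.16, −0.26, −0.29 and −0.80 in vehicle, and −0.39, −0.26, −0.22 and −0.17 in MS1262 animals. Wild-type animal 2 lay within the 5xFAD range and the other 3 above it. Without vehicle animal 4 the value was −0.31.

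Kcng4, a silent subunit gene of low level, had the smallest p of these genes for MS1262 animals against vehicle and against wild type. Its IP minus input difference was 0.09, −0.17, −0.17 and 0.20 log2 CPM in wild-type, −0.09, −0.24, 0.20 and 0.26 in vehicle, and 1.19, 1.13, 0.65 and 0.85 in MS1262 animals. The MS1262 animals lay above all others, by 0.98 (SE 0.36, adjusted p = 1.00) against vehicle and 1.00 (SE 0.36, adjusted p = 0.265) against wild type. These values rest on 6 to 98 IP counts and 17 to 85 input counts per library. Kcnj2 had 0.77, 1.16, 1.13 and 1.13 in wild-type and 0.35, 0.75, 0.65 and −0.0014 in MS1262 animals, which did not overlap (−0.62, SE 0.23, adjusted p = 0.271). Kcna4 (0.47, SE 0.22) and Kcnmb2 (0.49, SE 0.24) had the next smallest p for MS1262 against vehicle (adjusted p = 1.00 each), and on log2(TPM + 1) Kcnmb2 was −0.31.

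**Figure D5:**
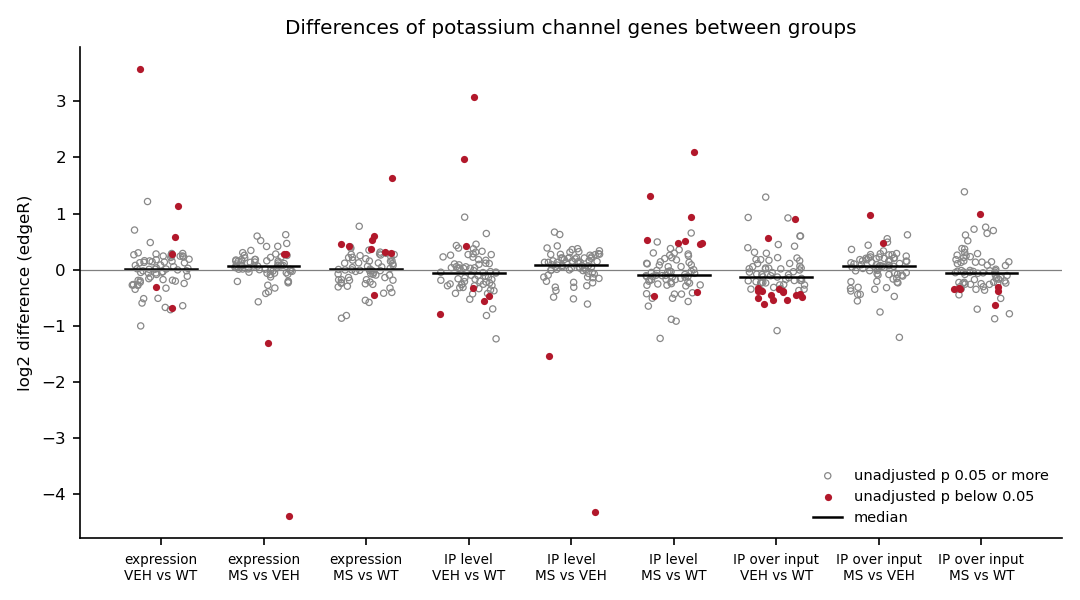
Log2 differences between groups (vertical axis, edgeR) of the potassium channel genes in input (expression, 73 genes), IP level (74) and IP over input (74), each point 1 gene and each bar the median; VEH is 5xFAD vehicle, MS is 5xFAD MS1262 and WT is wild type. No point passes after adjustment, filled points have an unadjusted p below 0.05, and the lowest point of MS vs VEH in expression is Kcne2 at −4.38.

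Genes known mostly from cells other than neurons were looked at for their own sake. The microglial leak channel genes Kcnk6 and Kcnk13 were at 0.0439 to 0.321 CPM and 2.28 to 4.30 CPM in wild-type input. In MS1262 animals they were at 0.607 to 0.904 and 3.82 to 4.59 CPM. Wild-type and MS1262 animals did not overlap for Kcnk6, whose difference was 1.63 log2 (adjusted p = 0.218) on 1 to 31 counts in these libraries. They overlapped for Kcnk13 (0.23, adjusted p = 0.716). Vehicle animals differed from wild type by 1.22 log2 for Kcnk6 (SE 0.60, edgeR adjusted p = 0.419) and by 0.13 for Kcnk13 (SE 0.23, adjusted p = 0.883). Kcna3, the Kv1 channel of immune cells and some neurons, was at 0.581 to 1.35 CPM in wild-type and 0.583 to 1.25 in MS1262 animals. In vehicle animals it differed from wild type by −0.27 log2 (SE 0.39, edgeR adjusted p = 0.837). The pericyte gene Kcnj8 (0.637 to 1.19 CPM in wild-type input, 0.392 to 1.004 in vehicle and 0.365 to 1.13 in MS1262 animals) and the astrocyte genes Kcnj10 (57.6 to 96.4, 84.2 to 102 and 80.6 to 112 CPM) and Kcnj16 (55.0 to 101, 78.3 to 111 and 58.9 to 94.95 CPM) overlapped between groups.

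Of 21 partner genes that share channel complexes or neighbouring roles without a Kcn symbol of the rule, 19 were tested. Between groups 1 was called, in expression of MS1262 against wild type alone, where 1.3% of all genes tested were called. Kcnq1ot1, the long noncoding RNA that runs antisense to Kcnq1, was at 16.9, 11.9, 17.3 and 21.9 CPM in wild-type input, 22.2, 29.2, 19.9 and 28.8 in vehicle and 33.9, 28.0, 37.5 and 28.6 in MS1262 animals. The MS1262 animals lay above the wild type without overlap, 1.88-fold (log2 0.91, SE 0.18, edgeR adjusted p = 0.0227). In IP level the same groups differed by 1.09 log2 without passing (edgeR adjusted p = 0.0774). Expression did not pass for vehicle against wild type (0.56, edgeR adjusted p = 0.176) or MS1262 against vehicle (0.35, edgeR adjusted p = 0.863). The use of strand in counting is not given in the sources used here, so reads of Kcnq1, with a mean count of 4.58, and Kcnq1ot1 cannot be told apart.

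In IP over input averaged over the groups 8 of the 19 partner genes were higher and 6 lower, where 28.2% of all genes tested were higher and 27.7% lower. The pacemaker channel gene Hcn2 had the largest ratio (log2 2.85, SE 0.22). Its input level was 0.0469 to 0.527 CPM, so that the size of this ratio is uncertain. Adam22 (0.85), Cntn2 (0.68) and Dlg4 (0.64), which cluster Kv1 channels on axons, were higher, and Cntnap2 (−0.21) and Lgi1 (−0.33) lower, on the TMM scale. In wild-type animals Cntnap2 (−0.06, edgeR adjusted p = 0.676) and Lgi1 (−0.15, edgeR adjusted p = 0.324) were not called. The lowest animal for Lgi1 was vehicle animal 4, with the shallowest IP library, at −0.99 log2 CPM. The Kv4 partners parted, with Dpp6 at 0.39 and Dpp10 at −0.34, though Dpp10 was not called in wild-type animals (−0.15, edgeR adjusted p = 0.419). Of 18 sodium and calcium channel genes of the symbols Scn and Cacna1, 9 were higher and 4 lower, with a median of 0.11, beside 27 higher and 16 lower of 74 and a median of 0.19 for the potassium channel genes. The median of all genes tested was 0.00 and the same 28.2% and 27.7% of them were called. None of the 18 was called between groups by edgeR in expression, IP level or IP over input.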

How the data were processed

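Total (input) and m6A-immunoprecipitated RNA of 12 mouse hippocampi was sequenced as 24 libraries, made from poly(A) RNA with a SMART-seq protocol in which no fragmentation step is named. Per the submitters' processing notes the builds were GRCm38 and mm10 and the tools included MACS2 2.1.2, Salmon 1.4.0, STAR 2.7.6a, SAMtools 1.10, Trimmomatic 0.32 and bcl2fastq 2.17.1.14. The authors deposited estimated counts and TPM values per gene, of which 8.62% of the estimated counts were not whole and were rounded here. Per the file headers, the deposited MACS2 peak lists hold for each animal the pileup signal, the −log10 p-value and q-value and the fold enrichment of IP over input. Input depth was 20.7 to 43.2 M counts and IP depth 3.98 to 48.6 M. Reads without molecular identifiers are not independent molecules, and intervals cover no more than the spread between these animals.

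Counts were tested with edgeR 4.0.16 under R 4.3.3 by its quasi-likelihood test on TMM-scaled libraries, after filterByExpr with a minimum count of 10, 2-sided, Benjamini-Hochberg adjusted p below 0.05 over all genes that passed. All 3 groups entered each fit. IP over input had the animal as a block: input and IP of 1 number come from 1 RNA, and in all 12 animals the input deviated most like its own IP (r 0.397 to 0.645). CPM used TMM-scaled library sizes, with a prior count of 2 on the log2 scale. Alternatives were DESeq2 1.42.0, limma 3.58.1 on log2(TPM + 1), other scaling, no filter, the block and each animal left out. Test scripts were tested on simulated data. Merged peak regions are overlapping peaks of any animals within a gene span of RefSeq (GRCm38.p6), and promoter windows are those of RefSeq. The genes named between groups are those with the smallest p of each comparison, along with genes known from other cell types. Some genes counted here are not reported by name. Members and lists were chosen with earlier results of these data known.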

Additional observations from a re-analysis of the deposited data

Results flagged for a closer look

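Of 261 groups of 4 animals examined, 25 held 1 animal far from the other 3 by Dixon's test, and chance alone flags about 1 group in 20. Vehicle animal 4, with the shallowest IP library, was the low animal in IP minus input (log2 CPM) for Kcnd2 (−2.03), Kcnh7 (−1.996), Kcnq3 (−1.35), Kcnj3 (−1.30), Kcnip4 (−1.11) and Kcnj2 (−0.37), and the high one for Kcnc1 (0.65). The same animal stood apart in input TPM for Kcnip3 (29.7) and Kcnk3 (2.19), and in IP TPM for Kcns3 (7.82). Vehicle animal 3, with the highest choroid plexus marker level, stood apart for Kcne2 in input (35.8 TPM) and IP (61.6 TPM).

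Wild-type animal 3 was far from its group in input TPM for Kcnk6 (0.0112) and Kcnmb2 (12.4), in IP TPM for Kcnab2 (26.4), and in IP minus input for Kcnj16 (0.49) and Kcnh7 (−0.43). Wild-type animal 1 was so in IP minus input for Kcnj2 (0.77) and wild-type animal 4 in input TPM for Kcng4 (0.595). MS1262 animal 1 was so in input TPM for Kcnip3 (40.0), Kcnma1 (28.0) and Kcnh7 (11.5) and in IP minus input for Kcnab1 (0.47), MS1262 animal 2 in IP minus input for Kcnip2 (−0.30), and MS1262 animal 3 in IP TPM for Kcns3 (10.6). The part of depth or dissection in these values was not tested.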

How the results depend on the processing

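Of the values of single genes recomputed under the alternatives, 557 kept their direction and their side of the threshold, 25 lost and 2 gained the call, and 14 reversed; of the counts of called genes 172 stayed within 1.5 times and 7 did not. Without the animal as a replicate block, IP over input called 14, 19 and 17 genes in the wild-type, vehicle and MS1262 groups. Limma on log2(TPM + 1), where the median of all genes is shifted upward, called 44 and 54 in the first 2 groups. Leaving out each animal in turn gave 17 to 21, 27 to 36 and 25 to 28 calls in wild-type, vehicle and MS1262 animals, and 0 to 0 in each comparison between groups. Expression of vehicle against wild type had 1 call without vehicle animals 3 and 4, an alternative chosen after seeing the data, and IP level of MS1262 against wild type had 1 by DESeq2.

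Leaving out each animal in turn, Kcne2 for MS1262 against vehicle ran from −5.16 to 1.15 in input and from −5.46 to 0.13 in IP; it reversed without vehicle animal 3 (the upper values) and without vehicle animals 3 and 4 (1.10 and 0.0541). On log2(TPM + 1), reversals in wild-type, vehicle and MS1262 animals were Kcnb2 (0.21, 0.38 and 0.0709), Kcnn2 (0.17, 0.0828 and 0.18) and Kcnv1 (0.23, 0.18 and 0.25), and between groups Kcnmb2 (−0.31); the median of all genes is shifted upward on that scale.

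The labels do not say that animal numbers pair animals of different groups. Of 24 same-numbered pairs, 2 correlated above 0.1 (r −0.241 to 0.225) and 3 of 24 correlated best with their own number. With 4 animals a group this check cannot decide whether the numbers share a batch. With the replicate number as a block across groups, 0 genes were called in expression and in IP level. With 4 animals a group, and IP depth down to 3.98 M counts, small differences were not detectable for genes of few counts such as Kcnh2.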
